A study of Mus musculus with 9 samples.

Results

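The liver turns dietary tryptophan into NAD through the kynurenine route, and 10 genes of tryptophan and NAD metabolism were followed here by RNA sequencing of mouse livers with and without hepatocellular carcinoma (HCC). They were Tdo2, Afmid, Kmo, Kynu, Haao, Acmsd, Qprt, Nampt, Nnmt and Naprt, all protein-coding genes, and their rows were found by gene symbol. Each had 1 row among the 55401 genes of the deposited count table, and all 10 passed the filter on low counts that left 15717 genes for testing. The study asked how the livers of mice with HCC responded to miR-22, a microRNA given as gene therapy. Healthy livers came from 3 female wild-type mice with no treatment, for which the labels give no age or collection time. Livers of untreated HCC (n = 3) came from female wild-type mice that received, at 6 weeks of age, a hydrodynamic tail vein injection of sleeping beauty transposon plasmids for activated AKT and NRAS and, 1 week later, a blank AAV8 vector. Livers of miR-22-treated HCC (n = 3) came from mice given the same oncogenes and, in place of the blank vector, AAV8 carrying miR-22 under the CMV promoter, which is not restricted to hepatocytes. Both vectors were given once, at 1 trillion genome copies per kg in the sample descriptions, whereas the study's methods state a higher dose, and livers were taken 5 weeks after the oncogenes, 4 weeks after the vector. One field of the sample descriptions names C57BL/6, whereas their protocol text and the study's methods give FVB/N for the sequenced livers. Their shared plasmid list also holds N90-β-catenin, but the design text and the methods name only RAS and AKT for these tumors. Healthy mice had neither oncogenes, hydrodynamic injection nor virus, so these cannot be told apart from tumor growth in any comparison with healthy livers.

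Whole livers were sequenced, so fewer cells of a type and less RNA per cell cannot be told apart. The healthy livers had total counts of 18258660 to 20964551, the untreated HCC livers of 18293676 to 23908392 and the miR-22-treated livers of 16664659 to 20459853. The 10 genes held between 79 and 24441 counts in each liver, the fewest in Nnmt. Livers of the same group differed by more than sampling noise (chi-square 6.35 to 30.2 per degree of freedom), and p-values below measure the spread between separate livers. The 10 hepatocyte markers examined, including albumin and transthyretin, were detected in every group. In CPM (counts per 1000000 of the TMM-normalized library size), their sum was 90939 to 107087 in untreated HCC, 119277 to 136836 with miR-22 and 160956 to 171867 in healthy livers, without overlap. Mature miR-22 was not measured in these data.

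Tryptophan that is not used for protein or serotonin is mostly broken down in hepatocytes. TDO, the product of Tdo2, opens the indole ring, arylformamidase (Afmid) frees kynurenine, and Kmo, Kynu and Haao carry it on to a reactive intermediate. That intermediate either closes by itself to quinolinate, which Qprt turns into the NAD precursor nicotinate mononucleotide, or is diverted by Acmsd towards complete oxidation. NAD is also rebuilt from its breakdown product nicotinamide by Nampt and from nicotinate by Naprt, while Nnmt methylates nicotinamide and so removes it from salvage.

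The mature sequence of the microRNA is shown because a target of a microRNA is usually sought by the pairing of its seed. Below, capitals mark bases 2 to 8 (the seed) of the mature microRNA, printed 5′ to 3′ from RefSeq (GRCm38.p6, chr11:75463772-75463793, plus strand), and in the other line the 7 bases complementary to that seed (GGCAGCT in DNA letters) in the 3′ untranslated region of Qprt.
mmu-miR-22-3p: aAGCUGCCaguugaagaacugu
Qprt site: taagactctggcaactGGCAGCTgacat
The Qprt match lay at chr7:126706799-126706805 (GRCm39, minus strand), 390 bases after the stop codon. It was the only match in the canonical 3′ untranslated regions of the 10 genes, that is in 1 of 10, whereas 2287 of 13550 tested genes with an annotated 3′ untranslated region (16.9%) held at least 1. These regions ran from 42 bases in Naprt to 2836 in Nampt, against a median of 1341 over tested genes, and a match describes letters, not a site in use. Qprt, the member with the match, did not pass the test in any comparison, and its values follow with those of the branch it shares with Acmsd.

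Most of the pathway was lower with untreated HCC than without tumors, from the opening of tryptophan to the salvage of nicotinamide. Of the 10 genes, 8 fell and 0 rose in edgeR's quasi-likelihood test, where a call needed both a fold over 1.5 and, after Benjamini-Hochberg adjustment over all tested genes, p under 0.05, while over all tested genes 18.1% fell and 22.7% rose. Afmid had the lowest estimate, 12.4% of its healthy level, followed by Nnmt (14.6%), Nampt (24.9%) and Haao (27.1%). The 95% confidence intervals of Afmid (9.55% to 16.1%) and Nnmt (7.88% to 26.9%) overlapped, so their order is not resolved. Tdo2, Kmo, Acmsd and Naprt fell to between 37.4% and 56.7%, and Kynu and Qprt were not called. For each of the 10 genes the values of the healthy livers lay entirely above those of untreated HCC, and over all tested genes 65.3% did not overlap in one direction or the other. The median log2 fold change was −1.31 over the 10 genes and 0.01 over all tested genes. Hepatocyte markers fell with them: 8 of 10 were called lower and 1 higher, with a median of −0.90.

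With miR-22, most of the 10 genes were higher than in untreated HCC: 7 rose and 0 fell, against 8.32% of all tested genes that rose and 5.47% that fell, and Kynu, Qprt and Naprt were not called. Tdo2, Afmid, Nampt and Nnmt rose by 2.58-, 3.12-, 2.99- and 2.95-fold, and Kmo, Haao and Acmsd by 1.80-, 1.93- and 1.85-fold. Groups were apart for 8 genes, all but Kynu and Nnmt, while 39.3% of all tested genes did not overlap. The median log2 fold change was 0.92 over the 10 genes and under 0.01 over all tested genes. In this comparison 4 of 10 hepatocyte markers rose and 0 fell, with a median of 0.57. Both comparisons share the untreated HCC livers, so a gene with low values in those 3 livers moves in opposite directions in them.

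Compared with healthy livers, miR-22-treated HCC remained lower in 3 of the 10 genes, Afmid, Haao and Nnmt, and higher in 0. Over all tested genes, 7.05% were lower and 16.9% higher. Groups were apart for 6 genes, all lower with HCC (Afmid, Kmo, Haao, Nampt, Nnmt and Naprt), beside 48.8% of all tested genes in either direction. The median was −0.33 over the 10 genes and 0.02 over all tested genes, and 3 of 10 hepatocyte markers were called lower (median −0.31). For 9 of the 10 genes the mean of miR-22-treated livers lay between those of the other groups, the exception being Qprt.

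**Figure D1:**
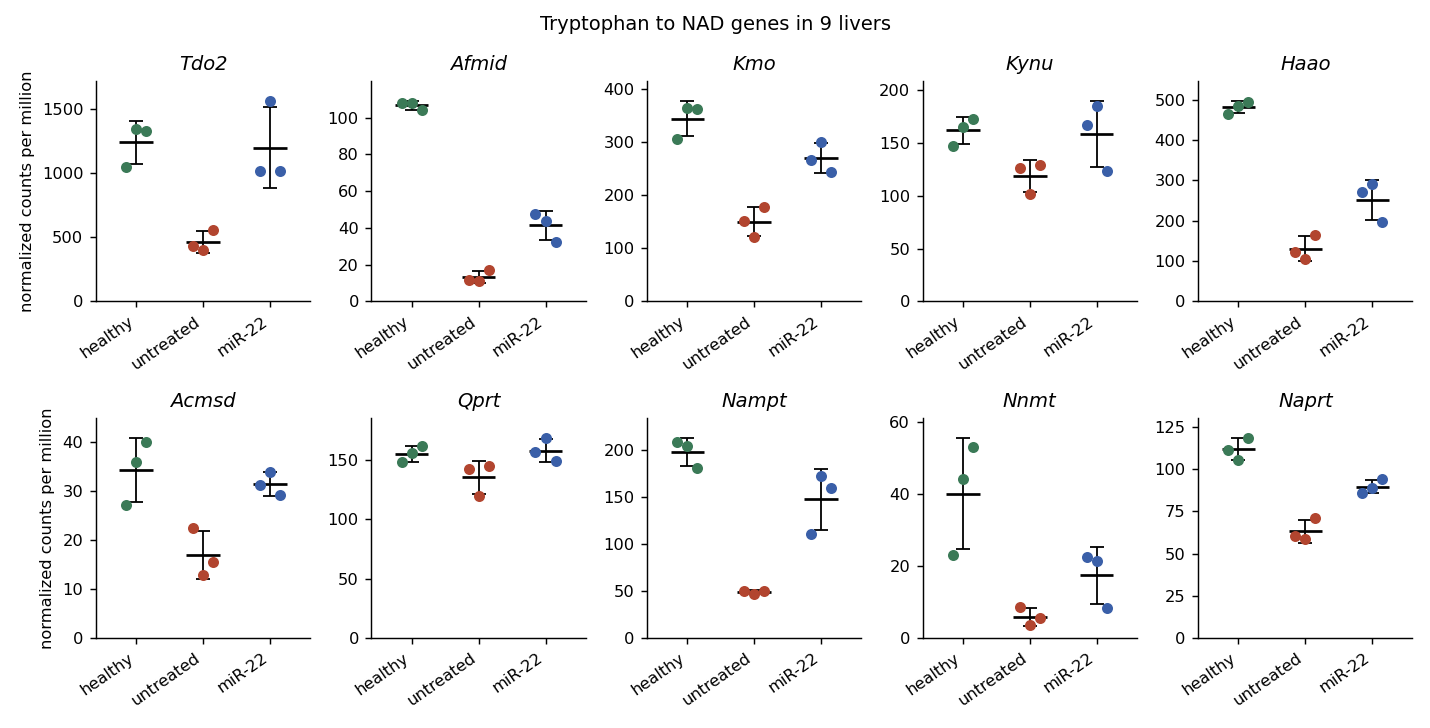
CPM (TMM-normalized, linear axis from 0) of the 10 genes in each of 9 livers. Points are livers in order of replicate number, long bars are group means and whiskers are ± 1 SD (n = 3); in every panel the untreated HCC livers lie below all healthy livers.

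**Figure D2:**
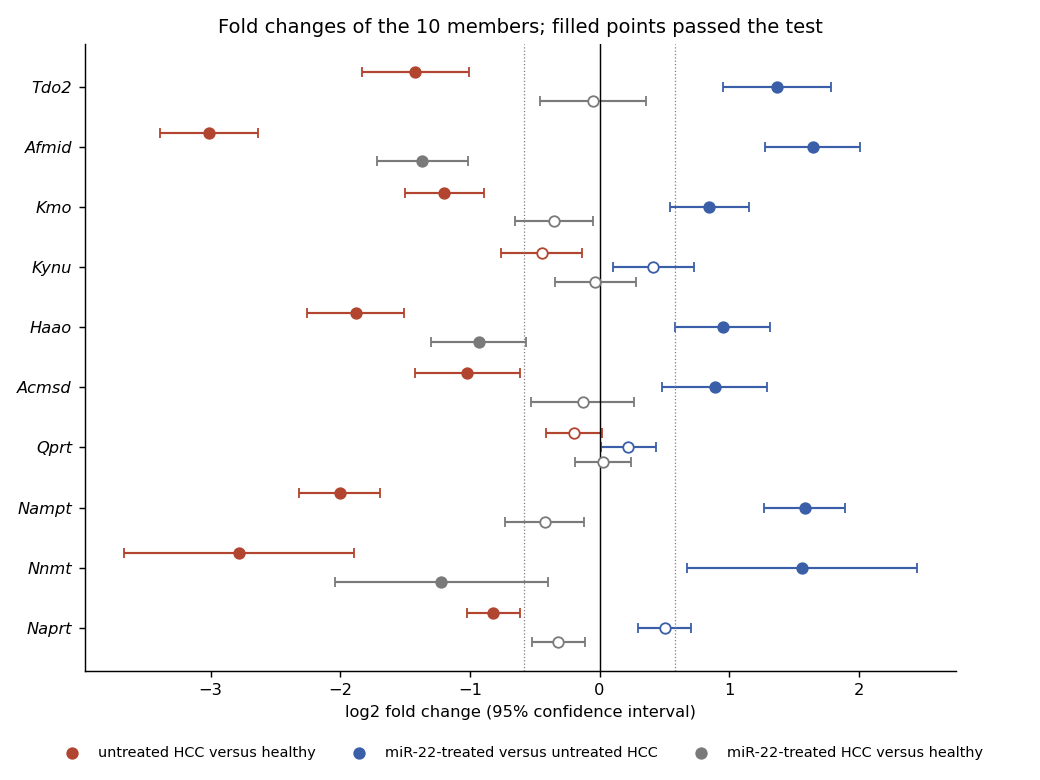
Log2 fold changes of the 10 genes in the 3 comparisons with 95% confidence intervals from edgeR. Filled points passed adjusted p under 0.05 and a fold over 1.5, and dotted lines mark that fold; red points lie left of 0 and blue points right of 0 for all 10 genes, and most grey points lie between them.

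The values of single livers are given below in CPM, in order of replicate number, which was 1, 2 and 3 for healthy livers and 2, 3 and 4 for both HCC groups. Tdo2 (ENSMUSG00000028011.16, chromosome 3, 81864248 to 81883509, minus strand, GRCm39) encodes the dioxygenase that commits tryptophan to the kynurenine route. It had 1046, 1345 and 1327 CPM in healthy livers, 432, 399.5 and 557 in untreated HCC and 1014, 1559 and 1014 in miR-22-treated HCC. Untreated livers stood apart at the bottom, and treated livers lay on both sides of the healthy values. The mean went from 1239 ± 167 CPM (SD, n = 3) in healthy livers to 463 ± 83.2 in untreated HCC (log2 fold change −1.42, SE 0.19, edgeR adjusted p = 4.12e-05) and was 1196 ± 314 with miR-22 (log2 fold change 1.37, SE 0.19, edgeR adjusted p = 0.000602). Against healthy livers the treated livers gave a log2 fold change of −0.05 with a 95% confidence interval of −0.46 to 0.36 (edgeR adjusted p = 0.852). Tdo2 shares 2004 exon bases with Ctso, a cathepsin gene on the opposite strand, and the libraries did not keep strand, so reads from those bases cannot be told apart. Ctso was listed at no more than 1542 counts in any liver.

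Afmid (ENSMUSG00000017718.15, chromosome 11, 117716712 to 117730734, plus strand), whose product hydrolyses N-formylkynurenine to kynurenine, had the largest estimated fall of the 10. Its level was 108, 108 and 104 CPM in healthy livers, 11.3, 11.1 and 17.1 in untreated HCC and 47.8, 43.8 and 32.6 in miR-22-treated HCC. No liver of any group overlapped another group. Afmid fell 8.06-fold in untreated HCC (log2 fold change −3.01, SE 0.17, edgeR adjusted p = 5.2e-08), rose 3.12-fold with miR-22 (log2 fold change 1.64, SE 0.17, edgeR adjusted p = 0.000102) and still had 38.7% of the healthy level after treatment (log2 fold change −1.37, SE 0.16, edgeR adjusted p = 4.25e-05). Afmid shares exon bases with the thymidine kinase gene Tk1 on the opposite strand (121 bases) and with the predicted transcript Gm20708 (1566 bases, at most 2 counts in a liver). Tk1 had a mean of 70.6 CPM in healthy livers, 15.5 in untreated HCC and 34.9 with miR-22, against 107 ± 2.36, 13.2 ± 3.38 and 41.4 ± 7.87 (SD, n = 3) for Afmid. It too fell in untreated HCC (log2 fold change −2.19) and rose with miR-22 (1.17), and reads from the shared bases cannot be told apart. Relative to the geometric mean of the 10 hepatocyte markers in the same liver, a scaling added after the data were seen and used without a test, Afmid was −2.12 and Tdo2 −0.51 on the log2 scale in untreated HCC against healthy livers. The median of all tested genes was itself 0.93 on that scale in untreated HCC against healthy livers, −0.57 with miR-22 against untreated HCC and 0.37 with miR-22 against healthy livers. With miR-22 both genes stood above untreated HCC, by 1.09 and 0.78, with groups apart.

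The route from kynurenine to the branch point is carried by Kmo, Kynu and Haao. Kmo (ENSMUSG00000039783.15, chromosome 1, 175447947 to 175489683, plus strand), the kynurenine 3-monooxygenase of the outer mitochondrial membrane, had 306, 364 and 362 CPM in healthy livers, 151, 122 and 178 in untreated HCC and 265, 301 and 244 in miR-22-treated HCC. The 3 groups did not overlap. Kmo fell in untreated HCC (log2 fold change −1.20, SE 0.14, edgeR adjusted p = 1.31e-05) and rose with miR-22 (log2 fold change 0.85, SE 0.14, edgeR adjusted p = 0.00135), and against healthy livers its difference missed the threshold (log2 fold change −0.35, SE 0.14, edgeR adjusted p = 0.066).

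Haao (ENSMUSG00000000673.9, chromosome 17, 84138583 to 84155392, minus strand) encodes the dioxygenase that makes the reactive branch point intermediate. Healthy livers had 465, 486 and 494 CPM, untreated HCC 121, 106 and 165 and miR-22-treated HCC 271, 290.1 and 196. The groups were apart in all 3 comparisons, and healthy livers varied little, by an SD of 3.16% of the mean. Haao fell 3.68-fold in untreated HCC (log2 fold change −1.88, SE 0.17, edgeR adjusted p = 1.79e-06), rose 1.93-fold with miR-22 (log2 fold change 0.95, SE 0.17, edgeR adjusted p = 0.00212) and was 52.4% of healthy after treatment (log2 fold change −0.93, SE 0.17, edgeR adjusted p = 0.00105).

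Kynu (ENSMUSG00000026866.16, chromosome 2, 43445309 to 43572734, plus strand), the kynureninase that cuts 3-hydroxykynurenine and depends on vitamin B6, had smaller fold changes than its neighbors in the route. It had 147, 166 and 173 CPM in healthy livers, 126, 102 and 129 in untreated HCC and 167, 185 and 124 in miR-22-treated HCC. Healthy and untreated livers were apart, but the lowest treated liver lay among the untreated ones. The adjusted p was 0.0181 for untreated HCC against healthy livers in edgeR, with a fold under 1.5 (log2 fold change −0.45, 95% confidence interval −0.76 to −0.13). With miR-22 the difference missed the threshold (log2 fold change 0.41, 95% confidence interval 0.10 to 0.73, edgeR adjusted p = 0.054). Relative to hepatocyte markers, Haao was −0.99 in untreated HCC against healthy livers with groups apart, Kmo −0.29 with groups overlapping, and Kynu changed sign to 0.47 with groups apart. Over all tested genes the median on that scale was 0.93, above the value of Kynu. With groups apart, 6.98% of all tested genes were lower there and 74.8% higher.

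Acmsd and Qprt stand on the branches that follow Haao, Acmsd on the one that leads away from NAD and Qprt, after the intermediate has closed to quinolinate, on the one towards it. Acmsd (ENSMUSG00000026348.7, chromosome 1, 127657143 to 127695715, plus strand) had 27.2, 36.0 and 39.9 CPM in healthy livers, 22.4, 12.9 and 15.6 in untreated HCC and 31.3, 33.9 and 29.1 in miR-22-treated HCC. Untreated livers were below all others, while healthy and treated livers overlapped. Acmsd fell to 49.3% in untreated HCC (log2 fold change −1.02, SE 0.19, edgeR adjusted p = 0.000473) and rose 1.85-fold with miR-22 (log2 fold change 0.89, SE 0.19, edgeR adjusted p = 0.00508), and treated and healthy livers gave a log2 fold change of −0.13 (95% confidence interval −0.53 to 0.27, edgeR adjusted p = 0.613).

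Qprt (ENSMUSG00000030674.5, chromosome 7, 126704596 to 126721398, minus strand), the quinolinate phosphoribosyltransferase, was the steadiest of the 10. Its values were 148, 155 and 161 CPM in healthy livers, 142, 119 and 145 in untreated HCC and 156, 168 and 149 in miR-22-treated HCC. Untreated livers were below the others by a small margin and none of the 3 comparisons passed. The log2 fold change was −0.20 for untreated HCC against healthy livers (95% confidence interval −0.41 to 0.02, edgeR adjusted p = 0.11), 0.22 for miR-22-treated against untreated HCC (0.01 to 0.44, adjusted p = 0.125) and 0.03 for miR-22-treated HCC against healthy livers (−0.19 to 0.24, adjusted p = 0.858). All 3 intervals lay within a change of 1.5-fold under this scaling. Per hepatocyte marker, Qprt was 0.72 higher in untreated HCC relative to healthy livers and −0.34 with miR-22 against untreated HCC. Groups were apart in both, while Acmsd was −0.12 and 0.35 with groups overlapping. On that scale 74.8% of all tested genes were higher with groups apart in untreated HCC, and 59.0% lower with miR-22. The medians of all tested genes were 0.93 and −0.57, shifts larger than those of Qprt.

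The ratio of Acmsd to Qprt within a liver does not depend on the scaling between libraries. On the log2 scale it was −2.44, −2.11 and −2.01 in healthy livers, −2.66, −3.20 and −3.21 in untreated HCC and −2.32, −2.31 and −2.35 in miR-22-treated HCC. Untreated livers had the lowest ratios, without overlap, and healthy and treated livers overlapped. The ratio was −0.83 in untreated HCC relative to healthy livers and 0.70 with miR-22 relative to untreated HCC (exact permutation test, two-sided, p = 0.1 for both, adjusted to 0.225 over 9 comparisons). With 3 livers against 3, 0.1 is the smallest p this test can give.

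**Figure D3:**
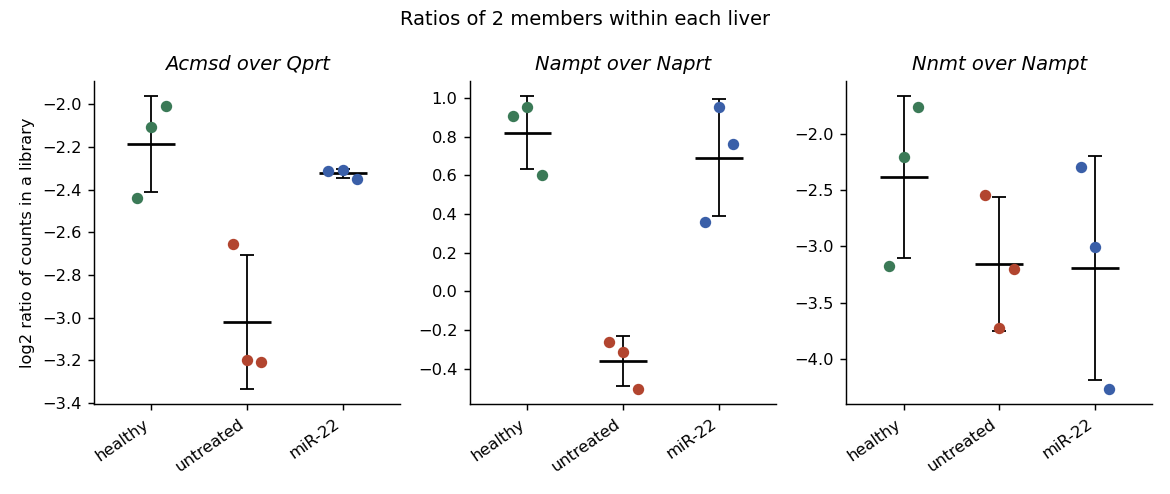
Log2 ratio of counts of paired genes within each liver, with group means and ± 1 SD (n = 3). Acmsd over Qprt and Nampt over Naprt were lowest in the untreated HCC livers without overlap, whereas Nnmt over Nampt overlapped between all groups; the axes do not start at 0.

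Nampt, the rate-limiting enzyme of nicotinamide salvage and also a secreted protein known as visfatin, was the member with the tightest untreated group. Nampt (ENSMUSG00000020572.8, chromosome 12, 32869544 to 32903368, plus strand) had 208, 205 and 180.3 CPM in healthy livers, 50.3, 47.3 and 50.1 in untreated HCC and 110.4, 172 and 159.6 in miR-22-treated HCC. All 3 groups were apart, and the treated livers ranged more widely than the others. Nampt fell 4.01-fold in untreated HCC (log2 fold change −2.00, SE 0.14, edgeR adjusted p = 2.63e-07) and rose 2.99-fold with miR-22 (log2 fold change 1.58, SE 0.14, edgeR adjusted p = 4.11e-05). Treated livers had 74.6% of the healthy level, a difference under the fold of 1.5 (log2 fold change −0.42, SE 0.14, edgeR adjusted p = 0.0312).

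Naprt (ENSMUSG00000022574.7, chromosome 15, 75762805 to 75766413, minus strand), which salvages nicotinate, had smaller fold changes. It had 111, 106 and 119 CPM in healthy livers, 60.3, 58.7 and 71.1 in untreated HCC and 86.0, 89.2 and 94.0 in miR-22-treated HCC. Groups were apart in each comparison, with small spread. Naprt fell to 56.7% in untreated HCC (log2 fold change −0.82, SE 0.09, edgeR adjusted p = 1.1e-05), and with miR-22 its difference from untreated HCC was under a fold of 1.5 (log2 fold change 0.50, SE 0.09, edgeR adjusted p = 0.0028). Without untreated HCC replicate 4 that difference passed the fold in edgeR's quasi-likelihood test as well (log2 fold change 0.59, adjusted p = 0.00111). Naprt shares 277 exon bases with Eef1d on the same strand, a gene with up to 2004 counts in a liver and no call in any comparison.

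The salvage genes were compared directly by their ratio within each liver. The log2 ratio of Nampt to Naprt was 0.91, 0.95 and 0.60 in healthy livers, −0.26, −0.31 and −0.51 in untreated HCC and 0.36, 0.95 and 0.76 in miR-22-treated HCC. Nampt was the more counted gene in every healthy and treated liver and the less counted in every untreated liver. Counts grow with transcript length (4659 bases for Nampt, 1898 for Naprt), so this order is not one of levels. Per kilobase of canonical transcript, Naprt had the higher mean in every group. In CPM per kb, Naprt and Nampt had 58.9 and 42.4 in healthy livers, 33.4 and 10.6 in untreated HCC and 47.3 and 31.6 with miR-22. The difference in the log2 ratio was −1.18 for untreated HCC against healthy livers and 1.05 for miR-22-treated against untreated HCC (exact permutation p = 0.1 each, two-sided, adjusted 0.225). Between treated and healthy livers it was −0.13 (exact permutation p = 0.6). Per hepatocyte marker, Nampt was −1.08 in untreated HCC against healthy livers and 0.99 with miR-22 against untreated HCC with groups apart, and Naprt 0.10 and −0.06 with groups overlapping.

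Nnmt (ENSMUSG00000032271.13, chromosome 9, 48448913 to 48518959, minus strand), the methyltransferase that draws nicotinamide and the methyl donor S-adenosylmethionine out of use, was the most variable member. Its level was 22.9, 44.2 and 53.0 CPM in healthy livers, 8.62, 3.54 and 5.42 in untreated HCC and 22.4, 21.4 and 8.23 in miR-22-treated HCC. Replicate 4 of the treated group lay among the untreated livers, and the other 2 treated livers lay just under the lowest healthy liver. Nnmt fell 6.87-fold in untreated HCC (log2 fold change −2.78, SE 0.41, edgeR adjusted p = 8.39e-05) and rose 2.95-fold with miR-22 (log2 fold change 1.56, SE 0.41, edgeR adjusted p = 0.0157). That rise lost its call without untreated HCC replicate 3 (1.30, edgeR adjusted p = 0.0744), miR-22-treated replicate 2 (1.32, 0.0615) or replicate 3 (1.38, 0.0648).

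Treated livers had 42.9% of the healthy level of Nnmt (log2 fold change −1.22, SE 0.38, edgeR adjusted p = 0.0243). In edgeR this call was lost without healthy replicate 2 (edgeR adjusted p = 0.0723), healthy replicate 3 (0.1) or miR-22-treated replicate 4 (0.0653, log2 fold change −0.87). The ratio of Nnmt to Nampt overlapped between all groups, and its differences were −0.77 for untreated HCC against healthy livers, −0.04 for miR-22-treated against untreated HCC and −0.81 for miR-22-treated HCC against healthy livers (exact permutation p = 0.2, 1 and 0.4, two-sided). Per hepatocyte marker, Nnmt was −1.85 in untreated HCC against healthy livers with groups apart, and 0.95 with miR-22 against untreated HCC with groups overlapping.

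The promoters of 7 members were in the RefSeq table (GRCm38.p6, 250 bases before to 50 after the start), and those of Afmid, Haao and Nampt, the called members with a promoter entry that fell furthest, are printed for their 250 bases before the start, 5′ to 3′ on the gene's strand. Capitals mark matches to 4 short motifs searched on both strands: the E-box CACGTG, the core GCGTG bound by the aryl hydrocarbon receptor (AHR), the HNF4 motif CAAAGTCCA and the glucocorticoid receptor half-site TGTTCT. The windows are chr11:117825669-117825918 (plus strand), chr17:83846791-83847040 (minus strand) and chr12:32820085-32820334 (plus strand).
Afmid: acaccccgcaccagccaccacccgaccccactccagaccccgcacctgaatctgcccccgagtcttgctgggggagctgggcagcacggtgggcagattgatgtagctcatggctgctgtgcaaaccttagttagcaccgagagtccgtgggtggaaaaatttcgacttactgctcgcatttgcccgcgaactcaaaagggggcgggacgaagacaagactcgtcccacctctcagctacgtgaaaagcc
Haao: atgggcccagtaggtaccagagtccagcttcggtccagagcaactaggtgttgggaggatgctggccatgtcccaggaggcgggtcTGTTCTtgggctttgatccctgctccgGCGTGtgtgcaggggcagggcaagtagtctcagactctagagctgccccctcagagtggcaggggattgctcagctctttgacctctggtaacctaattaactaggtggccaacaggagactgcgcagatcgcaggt
Nampt: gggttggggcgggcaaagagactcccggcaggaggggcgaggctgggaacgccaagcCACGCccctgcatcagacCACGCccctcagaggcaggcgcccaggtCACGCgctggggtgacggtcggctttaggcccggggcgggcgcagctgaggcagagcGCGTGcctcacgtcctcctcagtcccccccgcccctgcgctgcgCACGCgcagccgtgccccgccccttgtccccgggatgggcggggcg
In this window Nampt held the AHR core 5 times, Haao held it once beside a glucocorticoid receptor half-site (bases −164 to −159), and Afmid held none of the motifs. No match overlapped another. Over the full 300 bases, Tdo2 and Acmsd each held 1 AHR core, Kmo held 1 glucocorticoid receptor half-site, Qprt held none, and no member held an E-box or the HNF4 motif. Of 32851 RefSeq promoters, 32.4% held the AHR core, 19.0% the glucocorticoid receptor half-site, 7.15% the E-box and 0.475% the HNF4 motif. The AHR core was held by 4 of the 7 members with an entry (Tdo2, Haao, Acmsd and Nampt), and no motif searched was held by every member that moved.

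Levels can be compared between genes only per length, so CPM was divided by the kilobases of the canonical transcript. In healthy livers Tdo2 (346 ± 46.7 CPM per kb) and Haao (319.6 ± 10.1) stood at the top with overlapping values, above Kmo (126 ± 12.1). Kynu (59.1 ± 4.81) and Naprt (58.9 ± 3.44) could not be ordered within their spread, nor could Nampt, Qprt and Nnmt at 42.4 ± 3.27, 41.4 ± 1.77 and 38.2 ± 14.8, and Acmsd was lowest (12.6 ± 2.39). In untreated HCC, Tdo2 (129 ± 23.2), Haao (86.7 ± 20.3), Kmo (55.1 ± 10.2) and Kynu (43.4 ± 5.50) kept the first places by mean level. Afmid was sixth by mean level in healthy livers (45.1 ± 0.998 CPM per kb), overlapping Nampt and Nnmt, and last by mean level in untreated HCC (5.57 ± 1.43), where it could not be told from Acmsd (6.24 ± 1.80) and Nnmt (5.59 ± 2.45) within their spread. Nampt, close to Qprt per kilobase in healthy livers, was 10.6 ± 0.358 in untreated HCC where Qprt was 36.1 ± 3.76, and with miR-22 the 2 genes were 31.6 ± 7.02 and 42.1 ± 2.67.

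Within a group the 10 genes tended to be low in the same liver. Untreated HCC replicate 3 had the lowest value of its group for 10 of 10 genes, and it also had the lowest hepatocyte marker sum of that group. Untreated HCC replicate 4 had the highest value for 7 of 10 genes and the highest marker sum. Among treated livers, replicate 3 was highest for 7 genes and replicate 4 lowest for 8, and they held the highest and lowest marker sums too. Among healthy livers, replicate 1 was lowest for 7 genes although its marker sum was the highest. Values of 1 liver share a library, so these counts are a description.

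Since hepatocyte markers moved with the pathway, the 10 genes were also expressed per geometric mean of the 10 markers, a choice made after the data were seen. On that scale untreated HCC was below healthy livers with groups apart for 5 of 10 genes (Tdo2, Afmid, Haao, Nampt and Nnmt), above them with groups apart for 2 (Kynu and Qprt), and overlapped for 3, while over all tested genes 6.98% were below and 74.8% above. With miR-22 against untreated HCC, 5 were higher with groups apart (Tdo2, Afmid, Kmo, Haao and Nampt), Qprt was lower with groups apart and 4 overlapped, beside 4.41% of all tested genes higher and 59.0% lower with groups apart. Against healthy livers, miR-22-treated HCC was lower with groups apart for Afmid (−1.03) and Haao (−0.60), higher for Qprt (0.38), and overlapped for 7 genes, against 5.89% of all tested genes lower and 49.2% higher. The values of Kynu, Qprt and Naprt in untreated HCC against healthy livers, above 0 on this scale, were all below the median of all genes there. The markers themselves are regulated genes, 1 of which rose in untreated HCC, so this scale does not count hepatocytes.

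**Figure D4:**
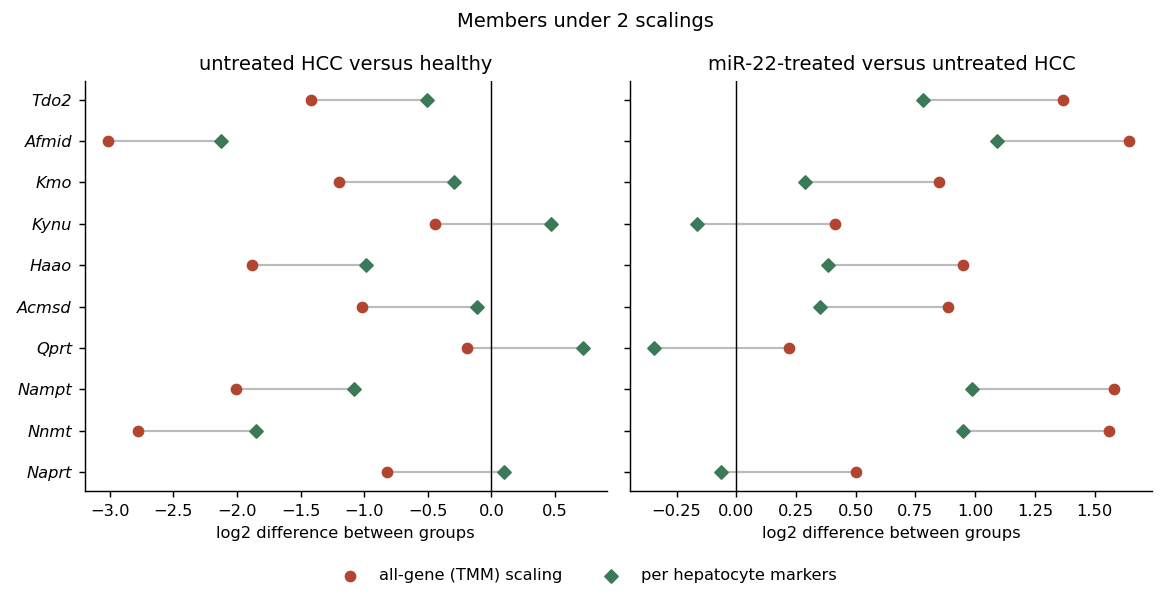
Log2 differences between group means for the 10 genes under the scaling to all genes (circles, TMM) and per geometric mean of 10 hepatocyte markers (diamonds), with no test on the latter. Afmid, Nnmt, Nampt, Haao and Tdo2 stay on the same side of 0 under both scalings, whereas Kynu, Qprt and Naprt change side in both panels; the panels have different horizontal ranges.

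Markers of other liver cells moved too, among them macrophages, which are known to express Kmo and Kynu, and fibroblasts, which are known to express Nnmt. Healthy, untreated and miR-22-treated livers had, in that order, macrophage marker sums of 370.0 to 453, 637 to 754 and 655 to 669 CPM, and 4 of 9 markers rose in untreated HCC. Stellate cell and fibroblast markers summed to 269.6 to 302, 900.4 to 1044 and 686 to 828 (5 of 8 higher and 2 lower in untreated HCC), and cholangiocyte markers to 29.4 to 41.9, 3324 to 6213 and 1562 to 2700 (4 of 5 higher in untreated HCC, 3 of 5 lower with miR-22). Dendritic cell markers summed to 40.3 to 85.4, 110.3 to 123 and 98.8 to 122 (4 of 6 higher), and endothelial markers to 244 to 326, 174 to 214 and 204 to 274 (2 of 5 lower). Neutrophil markers were scarce but rose: they summed to 0.315 to 1.70, 7.06 to 9.99 and 6.57 to 11.6 CPM, and both of the 2 tested were called higher in untreated HCC and in miR-22-treated HCC than in healthy livers, with Ly6g at 0 in all healthy and untreated livers. T cell and B cell markers were at or below 7.52 and 4.90 CPM, with 1 of 5 T cell markers higher and 1 of 4 B cell markers lower in untreated HCC. The part of these cells in the 10 genes' changes was not tested.

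The other enzymes of the kynurenine route were lower as well. Of 10 listed genes, 8 were tested, and all 8 fell in untreated HCC, with a median log2 fold change of −1.86. With miR-22, 7 of the 8 rose (median 1.04), and 6 were still lower than in healthy livers. Over all tested genes, 18.1% fell in untreated HCC, 8.32% rose with miR-22 and 7.05% were lower with miR-22 than in healthy livers. Ido2, a relative of Ido1 that the liver expresses, had 116, 123 and 122 CPM in healthy livers, 10.5, 12.9 and 19.0 in untreated HCC and 66.0, 72.9 and 41.3 in miR-22-treated HCC, with log2 fold changes of −3.08 and 2.08 (edgeR adjusted p = 2.72e-07 and 0.000121). Its groups did not overlap in any comparison. Ido1, the interferon-inducible dioxygenase of immune cells, had at most 3 counts in any liver and was not tested, nor was Il4i1.

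The kynurenine aminotransferases Kyat1, Kyat3 and Aadat, which make kynurenic acid, fell in untreated HCC (log2 fold changes of −1.98, −1.27 and −1.86) and rose with miR-22 by 1.40, 0.66 and 1.14. Enzymes that take the Acmsd branch on to oxidation fell too. Aldh8a1, Dhtkd1 and Gcdh had log2 fold changes of −1.62, −2.50 and −1.87, and with miR-22 they rose by 0.92, 1.33 and 0.94 (edgeR adjusted p of 0.00287, 0.000694 and 0.00247). Got2, the mitochondrial aspartate aminotransferase, fell by 0.66 and had a log2 fold change of 0.27 with miR-22 that was not called.

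Genes of NAD synthesis outside the 10 were less uniform. Of 10 tested, 5 fell and 0 rose in untreated HCC, 4 rose with miR-22 and 3 remained lower than in healthy livers. The shares of all tested genes were 18.1% and 22.7%, then 8.32% and 7.05%. Nmrk1, the kinase that enters nicotinamide riboside, had 78.0, 91.0 and 76.8 CPM in healthy livers, 14.2, 15.9 and 18.6 in untreated HCC and 33.3, 45.9 and 38.4 in miR-22-treated HCC (log2 fold change −2.33, SE 0.14, edgeR adjusted p = 5.79e-08 for untreated HCC against healthy livers). The mitochondrial NAD kinase Nadk2, the mitochondrial NAD carrier Slc25a51 and the nucleoside phosphorylase Pnp fell in untreated HCC (−1.34, −1.23 and −0.76 on the log2 scale) and rose with miR-22 by 0.68, 1.12 and 0.60. Nmnat3, the mitochondrial adenylyltransferase of the last step to NAD, fell by 1.16 without a call for miR-22 (0.29, edgeR adjusted p = 0.474). Its nuclear counterpart Nmnat1 was not called and had log2 fold changes of −0.04 (95% confidence interval −0.33 to 0.24) in untreated HCC and 0.03 (−0.26 to 0.32) with miR-22. Nadsyn1, the NAD synthetase behind Naprt, had an edgeR adjusted p of 0.0021 in untreated HCC with a fold under 1.5 (log2 fold change −0.53). With miR-22 its log2 fold change was 0.11 (edgeR adjusted p = 0.56).

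Enzymes that consume NAD were called in both directions. Of 20 tested sirtuins, PARPs and NAD glycohydrolases, 2 rose and 3 fell in untreated HCC, with a median of 0.03, beside 22.7% and 18.1% of all tested genes. Sirt3, the main mitochondrial deacetylase, fell (102 ± 6.58 to 31.9 ± 7.35 CPM, log2 fold change −1.68, SE 0.14, edgeR adjusted p = 1.1e-06) and rose with miR-22 to 63.4 ± 7.79 CPM (log2 fold change 0.99, SE 0.14, edgeR adjusted p = 0.000756). Sirt1 fell by 0.89 and Sirt7 fell by 0.77, and Sirt6 and Sarm1 rose by 0.75 and 2.00, Sarm1 from at most 8 counts in a healthy liver. With miR-22, 3 of the 20 rose (Sirt1, Sirt3 and Tiparp) and 1 fell (Sarm1), beside 8.32% and 5.47% of all tested genes. Parp1, the most studied NAD consumer of the nucleus, had log2 fold changes of 0.01 (95% confidence interval −0.20 to 0.23) and −0.21 (−0.43 to 0.01).

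Tryptophan has other fates, and the genes for these went different ways. Tph1 and Tph2, the serotonin-forming hydroxylases, had 0 counts in all livers. Wars1, the tryptophanyl-tRNA synthetase that loads tryptophan for protein synthesis, rose in untreated HCC (log2 fold change 0.73, SE 0.10, edgeR adjusted p = 6.88e-05) and fell with miR-22 (log2 fold change −0.61, SE 0.10, edgeR adjusted p = 0.00164), opposite to Tdo2. The indolethylamine methyltransferase Inmt had 503, 644 and 525 CPM in healthy livers, 39.3, 25.7 and 85.8 in untreated HCC and 269, 357 and 236 in miR-22-treated HCC, with groups apart in each comparison, and Maob fell by 1.72 and rose by 0.99. Aldehyde oxidases act on nicotinamide once Nnmt has methylated it, and Cyp2e1 oxidizes nicotinamide itself. Aox3 fell by 0.99 and rose by 0.93, Cyp2e1 fell by 2.65 and rose by 1.46, and Aox1 rose in untreated HCC (1.07, SE 0.13) with no call for miR-22 (−0.05, 95% confidence interval −0.32 to 0.21). Aox1 and Aox3 are close paralogs, so their split of reads is uncertain.

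Tdo2 is a textbook target of glucocorticoid signaling in hepatocytes, so the listed regulators and their reporters were read beside it. Of 8 genes, 7 fell and 0 rose in untreated HCC (median −1.30), 5 rose with miR-22 (median 1.02), and 1 was lower than healthy after treatment. For all tested genes the shares were 18.1% and 22.7%, then 8.32% and 7.05%. Nr3c1, the glucocorticoid receptor, fell by 1.16 and rose by 0.63. The glucocorticoid-responsive Tat, tyrosine aminotransferase, had 1751, 2054 and 2117 CPM in healthy livers, 355, 195 and 403 in untreated HCC and 1633, 2933 and 907 in miR-22-treated HCC. Treated livers spread on both sides of the healthy values, as they did for Tdo2. Replicate 3 was highest for both genes, as it was for 7 of the 10 members. The part of the glucocorticoid receptor in the changes of Tdo2 was not tested. Tsc22d3 and Fkbp5, widely used reporters of that receptor, fell (−1.80 and −1.29) and rose with miR-22 by 2.07 and 1.41. Ppara, the fasting receptor of fatty acid oxidation, fell by 1.92 and rose by 1.44, while Cebpa and Hnf4a, the latter also among the hepatocyte markers, fell (−1.32 and −0.71) with no call for miR-22 (0.55 and 0.30).

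**Figure D5:**
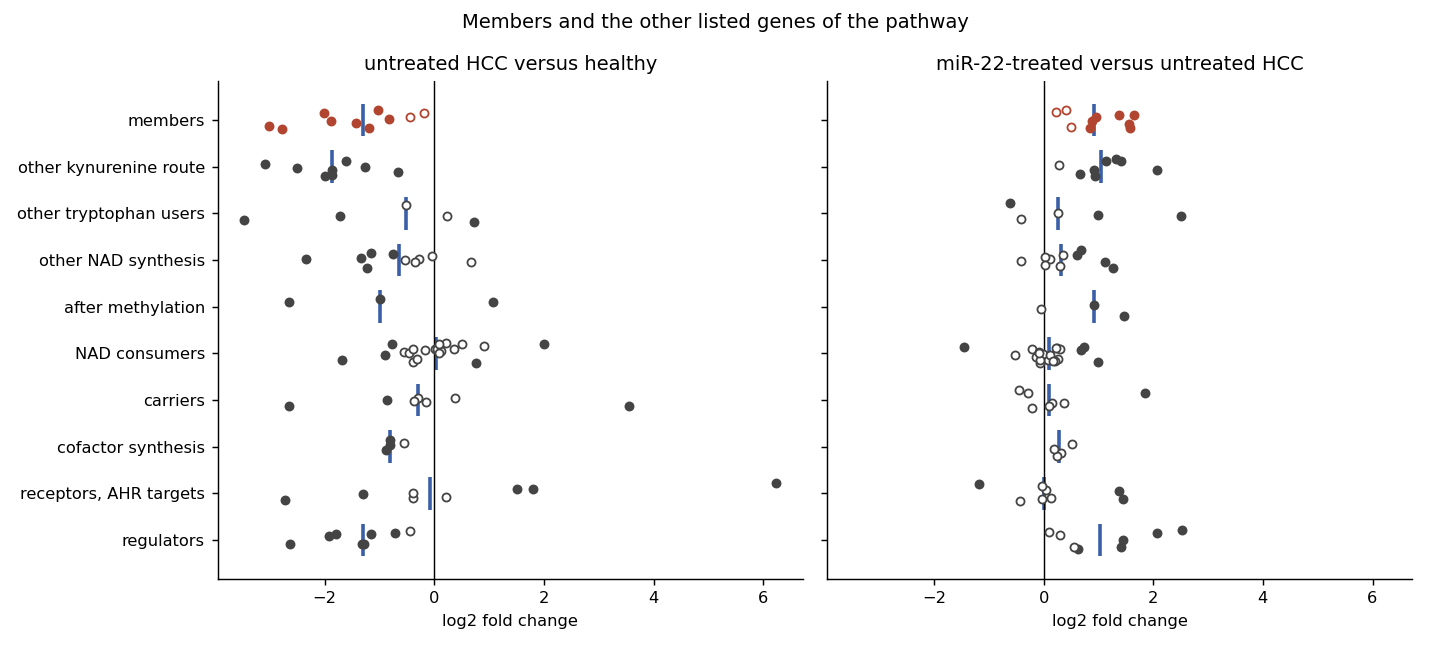
Log2 fold changes of the 10 members (red) and of the tested genes of 9 other lists (black) in the comparisons of untreated HCC with healthy livers and of miR-22-treated with untreated HCC. Filled points passed the test, open points did not, and blue bars are list medians; the members (median −1.31 and 0.92) and the other kynurenine route enzymes (−1.86 and 1.04) lie on 1 side of 0 in each panel, as do the regulators and the cofactor synthesis genes, and NAD consumers lie on both sides.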

How the data were processed

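RNA of 9 mouse livers (3 groups of 3) was sequenced by the authors as paired reads from non-directional libraries, quantified with Salmon and imported with tximport against GRCm39. The deposited table holds their estimated counts as whole numbers per gene, not normalized. The submitters' processing notes also name DESeq2 1.18 and FastQC 0.11.7. A second deposited table, of normalized values, was not used. The members and gene lists were chosen with earlier results of these data known, and every listed gene could be named, called ones first. Some listed items are not reported here.

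From the counts, 1 model with 3 groups was fitted to all 9 livers with edgeR 4.0.16 (R 4.3.3): filterByExpr kept 15717 of 55401 genes, scaled by TMM and tested two-sided by the quasi-likelihood F test with Benjamini-Hochberg adjustment. A gene was called at adjusted p under 0.05 and a fold over 1.5. The SE is the absolute log2 fold change over the square root of F. Ratios within a liver used counts + 1 and an exact permutation test. The TMM factors of healthy livers (0.865 to 0.872) were below those of miR-22-treated (0.942 to 1.03) and untreated HCC (1.12 to 1.22). Counts cover the genes as the authors counted them, and estimated counts can be split wrongly between paralogs or overlapping genes. Positions and transcript lengths came from GENCODE M39, a different release from the one the authors' methods name. Of 81 listed symbols beyond the members, 2 were matched through a synonym. The fit was tested on simulated data. Alternatives were DESeq2 1.42.0, limma-trend 3.58.1, other size factors and filters, fold thresholds, the 2 groups compared alone, a replicate block, and each liver left out. Figures were drawn with matplotlib 3.10.9.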

Additional observations from a re-analysis of the deposited data

How the results depend on the processing

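In untreated HCC against healthy livers, 8 members were called under every alternative of the count fit except without a fold threshold (9), with 6062 to 6587 genes called when single livers were left out (6417 with all). For miR-22-treated against untreated HCC, 2167 genes and 7 members were called. glmTreat, which tests against a fold of 1.5, left 468 genes and 3 members, losing Kmo, Haao, Acmsd and Nnmt, and no fold threshold gave 3777 genes and 8 members. Leaving out single livers gave 1433 (without miR-22-treated replicate 3) to 2660 genes (without miR-22-treated replicate 4) and 6 to 8 members. For miR-22-treated HCC against healthy livers, 3772 genes and 3 members became 2010 and 1 with glmTreat, 5732 and 5 without a fold threshold, and 3242 to 3809 genes and 2 to 3 members without single livers. DESeq2 called 2 members there (Nnmt adjusted p = 0.0525). The unfiltered fit gave far smaller p-values for some members than the others did, and the cause was not tested.

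Signs changed only for small differences or per hepatocyte marker. For Qprt in miR-22-treated HCC against healthy livers, the log2 fold change was −0.0028 with DESeq2 size factors, −0.0030 with DESeq2 and −0.0098 with the replicate block. Without single livers it ran from −0.024 to 0.067 for Qprt, from −0.16 to 0.12 for Kynu and from −0.29 to 0.053 for Tdo2 in that comparison. Per hepatocyte marker, differences reversed to 0.47 (Kynu), 0.72 (Qprt) and 0.10 (Naprt) in untreated HCC against healthy livers. They reversed to −0.17, −0.34 and −0.063 for the same genes with miR-22 against untreated HCC, and to 0.28 (Tdo2), 0.30 (Kynu), 0.24 (Acmsd) and 0.033 (Naprt) against healthy livers. The ratio of Nampt to Naprt ran from −0.26 to 0.036 between treated and healthy livers when single livers were left out, and Nnmt to Nampt from −0.48 to 0.50 between treated and untreated HCC. Where a left-out liver leaves 2 in a group, the spread was pooled over all groups. Beside the hepatocyte marker scale, no alternative moved the median of all genes by over 0.05 on the log2 scale.

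HCC groups share replicate numbers, but same-numbered livers did not deviate together (correlations of −0.16, −0.23 and −0.31 across genes). With 3 livers per group, these correlations cannot exclude a pairing. With the replicate block over all 9 livers, 5863, 1745 and 3044 genes and 8, 7 and 3 members were called in the order above. A replicate block within the 2 HCC groups alone, added after the data were seen, left 958 genes and 5 members called with miR-22, Haao at an adjusted p of 0.0587 and Nnmt at 0.0525.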

Other observations

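Of 7 tested carriers that bring substrates of the pathway in and out of cells, 1 rose and 2 fell in untreated HCC (22.7% and 18.1% of all tested genes), and 1 rose with miR-22 (8.32%), so the list as a whole was called about as often as other genes. One was above healthy livers after treatment. Slc22a7, a hepatocyte organic anion carrier, had 92.1, 82.5 and 101 CPM in healthy livers, 6.61, 10.7 and 26.1 in untreated HCC and 59.0, 71.1 and 28.2 in miR-22-treated HCC (log2 fold change −2.65, SE 0.41, edgeR adjusted p = 0.00014 and then 1.84, SE 0.41). Untreated livers were lowest without overlap. Slc16a10, a carrier of aromatic amino acids, fell (log2 fold change −0.87, SE 0.09, edgeR adjusted p = 4.42e-06) and was not called with miR-22 (0.37). Slc12a8, described as a nicotinamide mononucleotide carrier, rose from 8, 1 and 3 counts in healthy livers to 64, 92 and 44 in untreated HCC and had 41, 17 and 61 in miR-22-treated HCC (−0.44, edgeR adjusted p = 0.522 against untreated HCC).

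Enzymes that make the cofactors of Kynu and Kmo were lower in untreated HCC for 3 of 4 genes tested, and 0 of 4 were called with miR-22. Among all tested genes 18.1% were lower in untreated HCC, and with miR-22 8.32% were higher and 5.47% lower. The pyridoxal kinase Pdxk and the FAD synthase Flad1 had log2 fold changes of −0.88 and −0.81 in untreated HCC, each called in edgeR, and 0.31 and 0.19 with miR-22, neither called. Rfk, the riboflavin kinase, did not reach a fold of 1.5 (−0.56, 95% confidence interval −0.74 to −0.38).

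Kynurenines are ligands of the aryl hydrocarbon receptor and of Gpr35, and nicotinate is a ligand of Hcar2. Of 8 tested genes for receptors and aryl hydrocarbon receptor targets, 3 rose (Cyp1b1, Gpr35 and Hcar2) and 2 fell (Cyp1a1 and Cyp1a2) in untreated HCC. Over all tested genes 22.7% rose and 18.1% fell. Of the tested targets only Cyp1b1 rose. Hcar2 had few reads, with 0.126 to 0.377 CPM in healthy livers and 0.703 to 1.12 in untreated HCC. Cyp1b1 had 1.07, 1.13 and 0.879 CPM in healthy livers, 73.2, 105 and 55.4 in untreated HCC and 39.8, 27.0 and 36.1 in miR-22-treated HCC (log2 fold change 6.24, SE 0.29, edgeR adjusted p = 1.35e-08), and it fell with miR-22 (log2 fold change −1.18, SE 0.20, edgeR adjusted p = 0.00152). Cyp1a2, a target of the same receptor that marks hepatocytes, had 533, 723 and 673 CPM in healthy livers, 72.1, 87.2 and 131 in untreated HCC and 310.1, 269 and 174 in miR-22-treated HCC. It fell in untreated HCC (log2 fold change −2.73, SE 0.25, edgeR adjusted p = 1.45e-06) and rose with miR-22 (log2 fold change 1.38, SE 0.23, edgeR adjusted p = 0.00161). Cyp1a1, with 3 to 26 counts in a liver, fell in untreated HCC (log2 fold change −1.30, SE 0.47, edgeR adjusted p = 0.0333) and rose with miR-22 (log2 fold change 1.45, SE 0.47, edgeR adjusted p = 0.0402). Nqo1, another target, was not called (0.21 in untreated HCC). Ahr itself was not called (−0.38, 95% confidence interval −0.73 to −0.03). The kynurenic acid receptor Gpr35 rose in untreated HCC (log2 fold change 1.51, SE 0.32, edgeR adjusted p = 0.00151).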
